A study of Mus musculus with 24 samples.

Results

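Transcriptomes of cultured ear fibroblasts from mice named for 24 months of age were compared between cells in which OSK had been switched on for 6 days and untreated cells of the same age. OSK is the trio of transcription factors Oct4 (gene symbol Pou5f1), Sox2 and Klf4, which is carried as a transgene and induced with doxycycline (DOX). Membership followed the sample titles, and gave 4 OSK libraries and 4 untreated libraries of the 24 libraries in the series, compared over all genes. All 24 libraries came from mouse ear fibroblasts carrying the transgene. The other 16 were untreated cells, OSK cells and cells with OSK withdrawn for 4 days, of mice named for 3 months, and the withdrawal group of 24 months, with 4 libraries each. The promoter and the cell type that drive the transgene, the harvest day of the untreated cells and the sex of the mice were not given in the sources used here. The groups differ by doxycycline as well as by OSK, so an effect of the drug alone and an effect of the factors cannot be told apart. Library names carry the letters a, b, d and e in both groups, and what the letters stand for is not given in the sources used here. Nothing says that the libraries of a group came from separate animals, so p-values measure the spread between these libraries.

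Oct4, Sox2 and Klf4 belong to the set of factors that can return a somatic cell to a pluripotent state. When they are expressed in fibroblasts, the mesenchymal programme is usually lost early, epithelial genes and faster division appear, and the endogenous pluripotency network comes on late, if at all. Short or interrupted expression is called partial reprogramming. Fibroblasts make the collagens, elastic fibres and fibronectin of connective tissue. The ear also holds elastic cartilage, whose cells make aggrecan and collagens II, IX and XI.

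Between 23298057 and 31587979 reads were assigned to genes in each of the 8 libraries. The 10 genes with the most reads took 9.65% to 12.6% of the reads in untreated libraries and 6.53% to 7.56% with OSK. In a principal component analysis of the 8 libraries the 2 groups lay apart on the first component (66.4% of the variance). The second component took 11.8%, and untreated replicates 2 and 3 lay at its opposite ends. The fibroblast label was checked on 10 markers, all of which were detected. Their summed level was 753747 to 1268100 normalized counts in untreated libraries and 378406 to 630492 with OSK, so the level of the label's own markers moved with the treatment. Of these markers 7 were called lower with OSK (22.9% of all genes tested were), among them Col1a1, Lum and Pdgfra, Thy1 was called higher, and Dcn and Fap were not called. Fap was called lower by DESeq2, with a pseudocount of 5, without OSK replicate 3 or without untreated replicate 2 (log2 -1.87 to -1.17, adjusted p 0.00718 to 0.0436). In bulk RNA, fewer cells of a type and less RNA of its genes per cell cannot be told apart.

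Values are the deposited normalized counts, in which reads were divided by 1 factor per library and not by gene length. Changes are OSK minus untreated on the log2(value + 1) scale, with the standard error (SE) and the Benjamini-Hochberg adjusted p of limma over all genes tested. A gene is said to be called, or to have risen or fallen, at an adjusted p under 0.05. The induced factors were examined first. Pou5f1 stood at 15.6, 30.6, 3.4 and 11.6 normalized counts in untreated replicates 1 to 4 and at 5151, 6258, 3243 and 3735 with OSK. Sox2 stood at 77.2, 33.4, 70.3 and 39.4 and at 6597, 6769, 3887 and 4851. Klf4 started from 1786, 1837, 1172 and 1386 and reached 9389.9, 11651, 5329 and 6719.8. Every OSK library lay above every untreated library for the 3 factors, and OSK replicates 1 and 2 held the highest values of each. For each factor p was 0.0286 by an exact permutation test (two-sided), the smallest that 70 arrangements of 4 against 4 libraries allow. Since the table gives each symbol a single value, reads of the transgene and of the endogenous gene are counted together.

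OSK changed 6263 of the 14138 genes tested (44.3%). Of these, 3032 rose (21.4% of genes tested) and 3231 fell (22.9%). These shares are the background for the counts of each gene list. For 5215 genes (36.9%) the 4 OSK and the 4 untreated libraries did not overlap, 2562 with OSK above (18.1%) and 2653 with OSK below (18.8%). Most calls were small: 1691 rises and 1602 falls were under 1 on the log2 scale, and 1341 rises (9.49%) and 1629 falls (11.5%) reached 2-fold. At the far end 164 genes rose and 189 fell by at least 4 on the log2 scale. The median change of all genes was -0.00137 by the deposited factors. When every library was scaled to the same total instead, the median moved to 0.13, and the calls split into 4062 higher and 2543 lower, so that the share of rises among calls was 61.5% in place of 48.4%. Directions of single genes near 0 are therefore relative to the deposited factors.

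**Figure D1:**
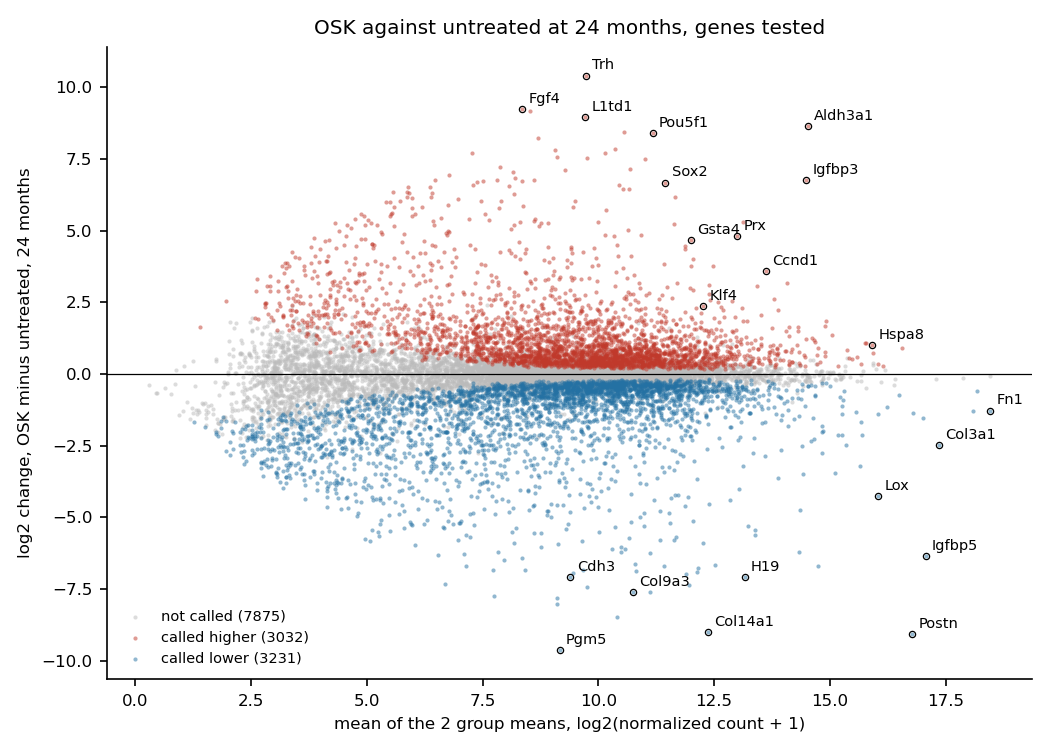
Change with OSK against level for the 14138 genes tested. The horizontal axis is the mean of both group means as log2(normalized count + 1), the vertical axis is the log2 change, OSK minus untreated, and each point is 1 gene: 3032 called higher in red, 3231 called lower in blue, the rest in grey. Aldh3a1 and Igfbp3 stand out among the abundant rises, and Postn and Igfbp5 among the abundant falls.

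Genes near silence in untreated cells were among the largest rises. Trh, the precursor of thyrotropin-releasing hormone, had no read in any untreated library and reached 2454, 2961, 712 and 652 normalized counts with OSK. Fgf4, a fibroblast growth factor made by embryonic cells, also had no read in the 4 untreated libraries and stood at 770.5, 1037, 415 and 389 with OSK. Against a floor of 3 reads per library these were at least 591-fold and at least 228-fold higher (log2 changes 10.41 and 9.23, adjusted p 3.47e-10 and 1.07e-11). Both were higher in OSK replicates 1 and 2 than in replicates 3 and 4. Tdh, threonine dehydrogenase, an enzyme that mouse embryonic stem cells rely on, had values of 0, 0.93, 0 and 0 in untreated libraries and 994, 1047, 495 and 418 with OSK (log2 change 9.18, SE 0.573). L1td1, an RNA-binding protein of pluripotent cells derived from a LINE-1 element, stood at 0, 5.56, 2.27 and 3.58 and at 2231, 1874, 1770.4 and 835 (log2 change 8.97, SE 0.715). For both genes the OSK libraries lay far above any untreated library.

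Aldh3a1, an aldehyde dehydrogenase known from cornea, was the rise with the smallest adjusted p of those named. It stood at 110.2, 104, 124 and 117 normalized counts in untreated libraries and at 49154, 66614, 36967 and 35636 with OSK, a 414-fold difference in means (log2 change 8.64, SE 0.26, adjusted p 5.36e-16). Untreated replicates were close together, and OSK replicate 2 was the highest. Crym, a thyroid hormone-binding crystallin, went from values of 0 to 50.03 in untreated libraries to 942 to 7033 (log2 change 8.45). Podxl, a sialomucin of the cell surface, went from 3.4 to 11.1 to 901 to 6584 (log2 change 7.85). Laptm5, a lysosomal membrane protein best known from blood cells, went from 1.73 to 14.7 to 831 to 1558, Cacna2d2, a calcium channel subunit, from 0 to 2.69 to 259 to 1875, and Ecel1, a membrane metalloprotease, from 0 to 1.13 to 124 to 644. Pllp, plasmolipin, rose from 8.06 to 11.3 to 1871 to 2842 with little spread in either group (log2 change 7.69, SE 0.475).

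The 12 largest falls included genes of secreted matrix. Postn, periostin, a matricellular protein of fibroblasts, stood at 304860, 192608, 155133 and 243383 normalized counts in untreated libraries and at 414, 185, 496 and 678 with OSK. It was 505-fold lower in the means (log2 change -9.08, SE 0.33, adjusted p 1.02e-14), and no OSK library came near the untreated range. Col14a1, a collagen that binds to fibrils, went from 10253, 13843, 3592 and 14226 to 10.8, 22.6, 22.1 and 15.9 (586-fold lower, log2 change -8.99). Pgm5, a structural phosphoglucomutase relative of adherens junctions, went from 1566, 1356, 279 and 1378 to 0, 0, 1.05 and 0 (log2 change -9.64). Untreated replicate 3 was the lowest of its group for all 3 genes, and lay above every OSK library as the naming rule required.

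Secreted growth regulators were also among the largest falls. Hgf, hepatocyte growth factor, fell from 780.1 to 1489 to 0.9 to 8.13 (log2 change -7.81, SE 0.494), and Ism1, a secreted isthmin, from 3177 to 5676 to 17.2 to 26.4 (log2 change -7.61, SE 0.351). Rspo3, an R-spondin that strengthens WNT signals, went from 99.8 to 259 to 0 to 0.94. Megf6 went from 1714 to 3918 to 0.9 to 16.3, Cldn19, a claudin, from 271 to 751 to 0 to 2.11, and Tnmd, tenomodulin of tendon, from 280.1 to 2976 to 0 to 3.62. Tnmd was highest in untreated replicate 2. The other 3 of the 12 largest falls were genes of cartilage collagens. Col9a3 fell from 542 to 6649 to 7.23 to 15.3 and Col11a2 from 624 to 17949 to 24.4 to 36.5, and Col9a2 is given with the cartilage list.

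**Figure D2:**
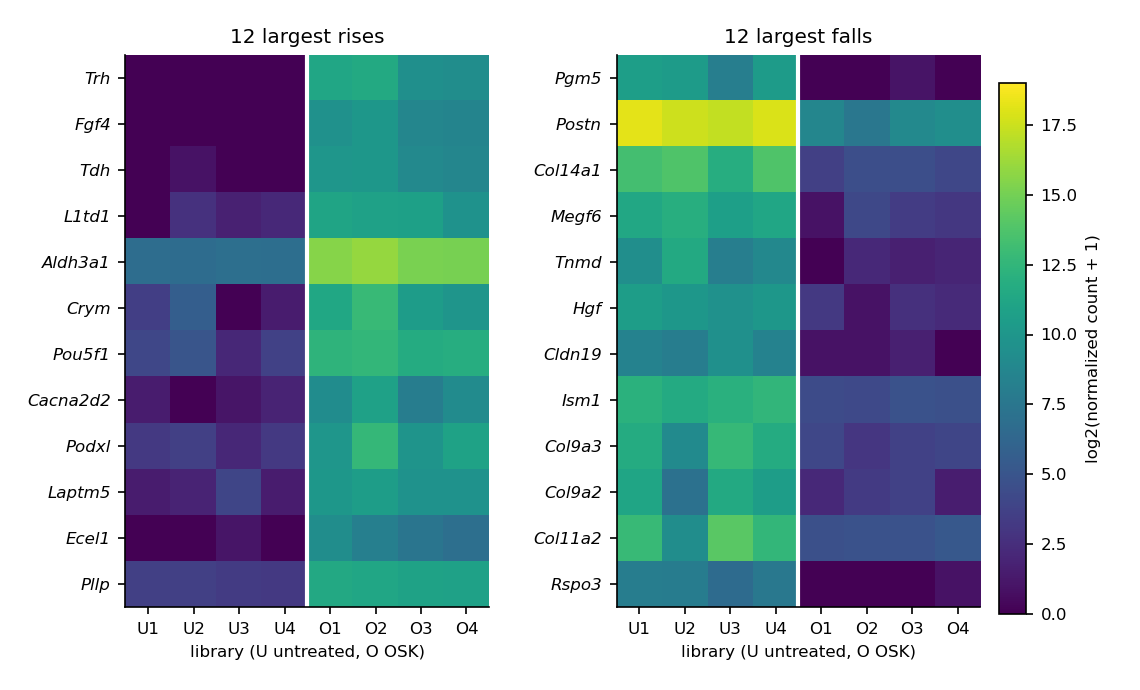
Level in each of the 8 libraries for the 12 largest rises and the 12 largest falls chosen by the naming rule. Rows are genes, columns U1 to U4 are untreated and O1 to O4 OSK replicates, and colour is log2(normalized count + 1). The groups do not overlap in any row because the naming rule required it, and Col9a2 and Col11a2 are darker in U2 than in the other untreated libraries.

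The largest changes in counts took in Aldh3a1 and Postn again, beside genes of smaller folds. Igfbp3, a secreted binding protein of insulin-like growth factors, went from 269, 725, 382 and 379.7 normalized counts to 57037, 48703, 44477 and 31981 (log2 change 6.76, SE 0.407). Its relative Igfbp5 moved the other way, from 346261, 262659, 176239 and 299396 to 2586, 2396, 2772 and 6371 (log2 change -6.35, SE 0.607). Groups did not overlap for either gene, which the naming rule required. The pyruvate kinase gene Pkm, the chaperone gene Hspa8, the fibulin gene Fbln5 and Ahnak, a giant scaffold protein, each rose about 2-fold, with log2 changes of 0.91, 1.01, 1.08 and 1.10. Fn1, fibronectin, fell from 770789, 387283, 439983 and 448075 to 213406, 197744, 152133 and 266798 (log2 change -1.28, SE 0.297, adjusted p 0.00132), with untreated replicate 1 far above the other 3. Col1a1, the main chain of collagen I, fell from 408986, 505660, 230314 and 422872 to 102519, 162317, 226189 and 156784 (log2 change -1.27, adjusted p 0.0008). For Col1a1 the highest OSK library, replicate 3, lay just under the lowest untreated library, also replicate 3.

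Most core transcription factors of the pluripotency network stayed near silence, while other pluripotency genes rose. Of 49 listed pluripotency genes 27 passed the filter, which asked for 10 normalized counts in 4 or more libraries of the series. Of these 11 rose and 7 fell, with a median change of 0.17 (21.4% of all genes rose and 22.9% fell, so the falls are near that share). Of the 22 under the filter, 19 had no library of the 8 above 10 and 10 were at 0 in all 8. Among 20 core transcription factors of the network 14 were under the filter, and the highest value any of them reached was 10.85, for Esrrb in OSK replicate 2. Nanog stood at 11.3, 17.6, 10.2 and 11.6 in untreated libraries and at 6.32, 6.33, 8.43 and 9.36 with OSK, which was not called (log2 change -0.66, adjusted p 0.396). Sall4 was at 0 in all 8 libraries.

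Of the core factors 3 were called. Klf2 fell from 2553, 3413, 2955 and 3789 to 476, 614, 519.5 and 642 (log2 change -2.49, SE 0.204), Klf5 fell by 0.99 on the log2 scale, and Mybl2, which is also a cell cycle factor, rose by 1.12. Tet1, which encodes a DNA demethylase, fell by 1.58. The other rises of the list lay outside the core factors. Besides Trh, Fgf4, Tdh and L1td1 they included Upp1, uridine phosphorylase (0.9 to 13.6 to 507 to 1647), Bmp4 (27.2 to 44.5 to 189 to 319) and the surface protein gene Cd9 (5907 to 7084 to 13159 to 16496). Trim71 and Fbxo15, which encode an RNA-binding ubiquitin ligase and an F-box protein of embryonic stem cells, stayed under 100 counts in every library but were called higher (log2 changes 3.90 and 4.04). Klf5 was not called without OSK replicate 4 or without untreated replicate 3 (log2 -0.81 to -0.73, adjusted p 0.0757 to 0.0917), and Mybl2 not called without untreated replicate 4 (log2 0.91, adjusted p 0.0525). When the 2 groups were fitted alone, 4 members in place of 7 were called lower. The MYC family, which OSK does not include, rose with the trio. Myc stood at 959, 849.7, 1259.8 and 1130.1 and at 3088, 3216, 2521 and 2457 (log2 change 1.43, SE 0.177), Mycn reached 9.48 to 124 from 0 to 4.34, and Mycl 29 to 108 from 5.67 to 25.

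Because Oct4 binds the octamer ATGCAAAT, the 250 bases before each start site were read from RefSeq (GRCm38.p6) for the 11172 tested genes that matched, and 12 motifs were searched on both strands. The octamer was singled out after the shares of all 12 had been seen, and no test was made. It stood in 1.57% of all these promoters, in 2.17% of genes that rose and in 1.42% of genes that fell. Among genes that rose at least 4-fold it stood in 5.75%, which were 23 genes, and among those that fell at least 4-fold in 2.05%, which were 12 genes. The share in genes with the strong rise was 3.66 times that in all promoters. For 9 of the other motifs, which included the SOX core ACAAAG, the KLF motif GGGTGTGG and the AP-1 motif TGACTCA, this ratio lay between 0.81 and 1.53. The composite SOX-octamer motif was in no promoter. A looser form of it was in 4 promoters, 1 of them of a gene with a strong rise.

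The windows around the octamer are shown for 6 genes with the motif. These genes rose by at least 4 on the log2 scale and averaged at least 100 counts with OSK. Their log2 changes, 4.80 to 6.71, lay below those of the largest rises named above. Each window runs 5′ to 3′ on the strand of its gene, and capitals mark the octamer in either orientation. A match is a description of letters and not a binding site.
Acsbg1 (chr9:54661886-54661981, minus strand): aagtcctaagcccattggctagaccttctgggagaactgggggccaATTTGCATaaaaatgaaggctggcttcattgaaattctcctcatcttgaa
Pipox (chr11:77894014-77894113, minus strand): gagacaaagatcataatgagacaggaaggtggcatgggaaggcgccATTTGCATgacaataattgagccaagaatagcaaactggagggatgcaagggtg
Liph (chr16:21995576-21995675, minus strand): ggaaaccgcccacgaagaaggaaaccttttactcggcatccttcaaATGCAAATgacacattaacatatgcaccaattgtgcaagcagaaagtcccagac
Odaph (chr5:91987350-91987449, plus strand): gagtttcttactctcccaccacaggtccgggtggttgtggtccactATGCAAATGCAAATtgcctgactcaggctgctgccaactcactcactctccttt
Nrarp (chr2:25180663-25180757, plus strand): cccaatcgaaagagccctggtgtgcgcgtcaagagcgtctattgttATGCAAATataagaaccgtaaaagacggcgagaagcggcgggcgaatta
Prx (chr7:27499074-27499144, plus strand): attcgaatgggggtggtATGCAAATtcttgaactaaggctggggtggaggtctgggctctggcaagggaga
The octamer began 50 bases before the annotated start of Acsbg1, 49 before Nrarp, 77 and 71 before Odaph, where 2 octamers overlap, 87 before Liph, 195 before Pipox and 233 before Prx.

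Since these 6 genes were chosen for a large rise, a difference between the groups follows from the choice. Prx, periaxin, a scaffold protein of myelinating cells, stood at 582, 473, 467 and 797 normalized counts in untreated libraries and at 15682, 16326, 15944 and 15208 with OSK (27.2-fold, log2 change 4.80, SE 0.216, adjusted p 2.69e-13). Its OSK libraries differed little from each other. Pipox, a peroxisomal oxidase of pipecolic acid and sarcosine, stood at 6.94, 1.85, 10.2 and 8.95 and at 744, 669, 465 and 413. Nrarp, a feedback inhibitor of NOTCH signalling, stood at 26, 12.1, 1.13 and 47.5 and at 593, 1018, 289.8 and 525. OSK replicate 2 was the highest for Nrarp, and replicate 1 for Pipox. Acsbg1, an acyl-CoA synthetase, rose from 1.13 to 3.47 to 184 to 477, Liph, a membrane lipase, from 0 to 3.71 to 82.4 to 244, and Odaph, named for its part in enamel, from 1.13 to 6.07 to 194 to 305. All 6 windows, that of Prx included, were chosen for the motif and the rise after the values had been seen.

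Epithelial genes rose in part. Of 35 tested members 13 rose and 3 fell, with a median change of 1.04 (all genes 21.4% and 22.9%). Cdh1, E-cadherin, stood at 61.6, 85.2, 35.1 and 55.5 normalized counts in untreated libraries and at 161, 351, 213 and 435 with OSK (log2 change 2.23, SE 0.436, adjusted p 0.000244). The groups did not overlap, and OSK replicates 2 and 4 were the highest. Krt19, a keratin of simple epithelia, stood at 272, 256, 425 and 329.5 and at 5526, 7201, 9588 and 6215 (22.2-fold, log2 change 4.47, SE 0.249). The simple-epithelial keratin genes Krt8 and Krt18 rose too (1.31 and 2.40), and the groups overlapped for Krt8, which was not called in a fit of the 2 groups alone, without OSK replicate 3 or without any 1 of untreated replicates 1 and 2 (log2 0.84 to 1.31, adjusted p 0.05 to 0.131). The junction genes Cldn1 and Pkp2 rose by 3.98 and 2.31, and the transcription factor gene Ehf by 3.40. Epcam, Cldn7, Esrp1 and Grhl1 were not called. Cdh3, P-cadherin, fell from 1703, 1591, 510.3 and 1536 to 5.42, 19, 2.11 and 15 (log2 change -7.08). The summed level of 10 keratinocyte markers overlapped between the groups, at 499 to 662 in untreated libraries and 329 to 949 with OSK. Of 5 tested markers 1 was called lower, and Krt14 and Krt1 had 3 reads or fewer.

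Mesenchymal genes fell more often than they rose. Of 43 tested members 20 fell and 7 rose (median -0.65; all genes 22.9% and 21.4%). Among 22 transcription factors 13 fell and 2 rose. Snai1, a repressor of E-cadherin, stood at 1598, 1293, 1060.2 and 1018 in untreated libraries and at 219, 259, 161 and 162 with OSK (log2 change -2.63, SE 0.224, adjusted p 4.22e-09). Every OSK library lay far below the untreated ones. Osr1 and Ebf3 fell too (log2 changes -2.24 and -2.65), and Snai2, Zeb2, Prrx1 and Twist2 were called lower, while Tbx15 rose by 1.16. Twist2 was not called in a fit of the 2 groups alone, without OSK replicate 3 or without untreated replicate 2 (log2 -0.85 to -0.63, adjusted p 0.0543 to 0.0665). Zeb1 was not called.

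Surface and cytoskeletal genes of mesenchymal cells split. Cnn1, a calponin of contractile cells, fell from 1297, 4400.3, 1058 and 1389 to 37.9, 51.5, 24.2 and 38.4 (log2 change -5.49), with untreated replicate 2 the highest. Pdgfra, a receptor that marks fibroblasts, fell from 18011 to 34262 to 6323 to 14203 (log2 change -1.56), and Cdh11, a cadherin of mesenchyme, fell by 3.01. Cd34, a surface sialomucin of progenitor cells and dermal fibroblasts, rose from 3041, 4306, 2431 and 4082 to 24278, 38695, 24647 and 37099 (log2 change 3.17, SE 0.323). Ly6a, the mouse surface antigen SCA-1, rose from 3912 to 8002 to 18081 to 34135, and Thy1 by 1.31 with overlapping groups. Thy1 was not called by DESeq2, by edgeR, in a fit of the 2 groups alone, without OSK replicate 2 or without untreated replicate 3 (log2 0.87 to 1.31, adjusted p 0.0531 to 0.0878). Vim, vimentin, stood at 252540, 166202, 330599 and 267017 and at 216696, 210744, 235639 and 231891 and was not called (adjusted p 0.539).

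Of 106 tested matrix genes 64 fell and 10 rose, with a median of -1.27 (all genes 22.9% and 21.4%). All 6 fibrillar collagen genes fell. Col3a1 stood at 281877, 289109, 213818 and 342511 normalized counts in untreated libraries and at 38255, 36527, 72834 and 59469.9 with OSK (5.44-fold lower, log2 change -2.49, SE 0.189, adjusted p 7.67e-10), without overlap. The log2 changes of Col5a1 and Col5a2 were -2.03 and -1.66, and that of Col12a1, which decorates fibrils, was -3.50. Col5a3 had the weakest of these calls, with overlapping groups (log2 change -1.44, adjusted p 0.0432), and was not called by DESeq2, by edgeR, without the filter, with totals made equal, without any 1 of OSK replicates 1 and 2 or without any 1 of untreated replicates 1, 3 and 4 (log2 -1.44 to -1.14, adjusted p 0.053 to 0.139).

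Enzymes and elastic fibres followed. Lox, lysyl oxidase, which crosslinks collagen and elastin, stood at 108877, 138592, 177480 and 91014 and at 6472, 7692, 5772 and 6488 (19.5-fold lower, log2 change -4.25, SE 0.25, adjusted p 1.61e-11). Eln, elastin, stood at 11769.8, 13754, 12667 and 17926 and at 414, 964, 684 and 685 (20.4-fold lower, log2 change -4.39). Neither gene had overlapping groups. The OSK values of Lox were close together, while those of Eln ran from 414 to 964. Of 14 elastic fibre and fibronectin genes 12 fell and none rose, with Mfap4 at -6.85 and Mfap2 at -4.19. Among 17 collagen-processing enzymes 11 fell, and Loxl3, a paralog of Lox, was one of 2 that rose (2162 to 4007 to 13367 to 15824, log2 change 2.30). Of 13 matrix proteases and their inhibitors 8 fell, none rose and 5 were not called, with Mmp19 at -2.89 and Mmp2 at -1.80.

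Basement membrane genes were mixed, with 4 rises and 7 falls among 21, beside 21.4% and 22.9% of all genes. Col4a6, a chain of collagen IV, fell by 3.16. Among proteoglycans, Lum, Aspn and Ogn fell (log2 changes -3.72, -2.75 and -1.99). Spon2, a secreted protein of the spondin family, was the largest rise among named matrix genes. It stood at 329.6, 467, 369 and 278 and at 4931, 4777, 5097 and 5512 (log2 change 3.83, SE 0.334), with hardly any spread among OSK libraries.

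**Figure D3:**
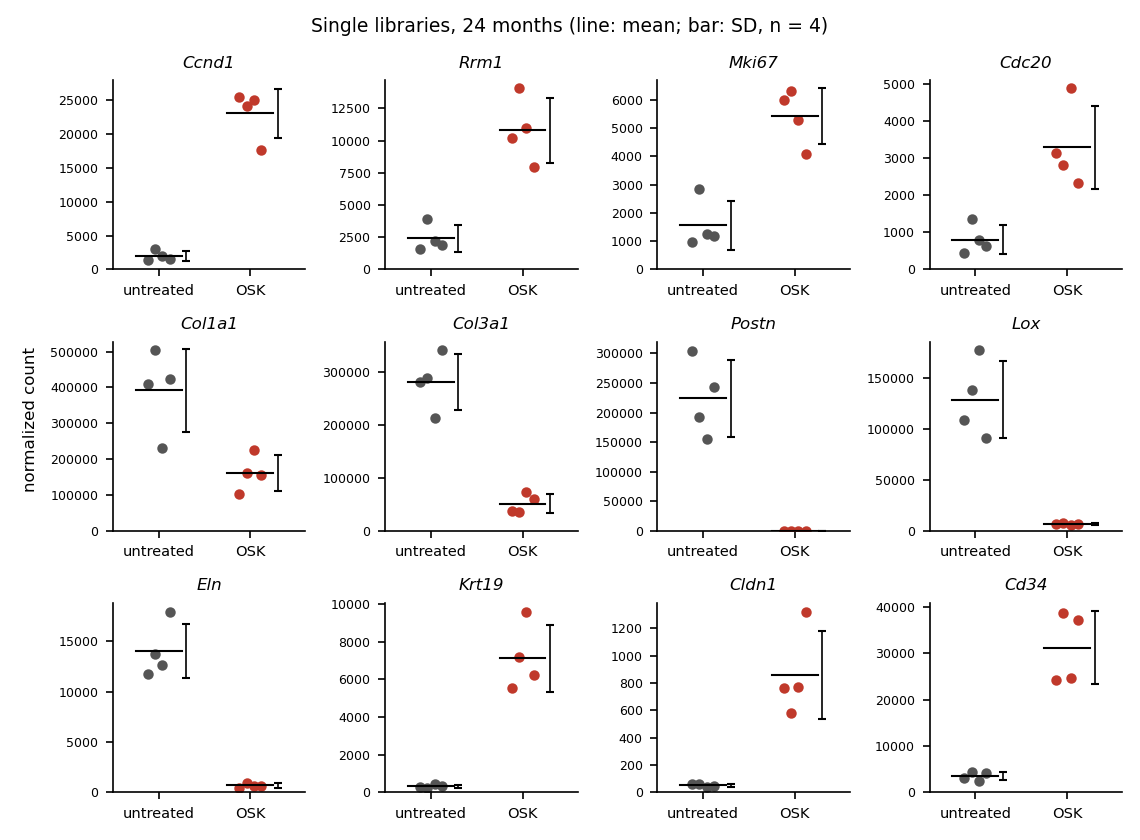
Normalized counts of 12 genes in single libraries. Each panel is 1 gene with its own vertical axis from 0, grey points are the 4 untreated and red points the 4 OSK libraries, lines are means and bars SD (n = 4). The groups do not overlap in any panel, and Col1a1 comes closest, with its highest OSK library just under its lowest untreated one.

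Cartilage genes had the lowest median of the 27 gene lists, cell type markers aside. Of 21 tested members 18 fell and none rose, with a median of -3.99 (all genes 22.9% and 21.4%). Col9a2, a chain of collagen IX, stood at 2271, 132, 2981 and 1501 in untreated libraries and at 3.61, 8.14, 11.6 and 1.87 with OSK (log2 change -7.43, SE 0.827). Acan, aggrecan, stood at 6478, 573, 14243 and 4737 and at 83.1, 66, 91.7 and 68.3 (log2 change -5.68, SE 0.84). Comp, cartilage oligomeric matrix protein, stood at 51799, 7504, 108338 and 51021 and at 405, 153, 837 and 360.4 (log2 change -6.69). In each of these genes untreated replicate 2 was the lowest and replicate 3 the highest of the untreated libraries, and both lay above all OSK libraries. The summed level of 10 chondrocyte markers showed the same spread, from 15843 in untreated replicate 2 to 155763 in replicate 3, and was 5227 to 13075 with OSK. Without untreated replicate 2 the list held 18 falls and 1 rise (median -4.29), and without replicate 3 it held 18 falls (median -3.44). Sox9, the factor that sets the chondrocyte fate and is also made by fibroblasts, spread less, from 5349.7, 4034, 7213 and 6706 to 531, 772, 446 and 521 (log2 change -3.35, SE 0.205, adjusted p 2.78e-11).

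Several signalling pathways changed in their parts. FGF ligands act through receptor kinases and the ERK cascade, which induces its own inhibitors and ETS factors. Of 11 FGF targets and feedback inhibitors 10 rose and none fell (all genes 21.4% and 22.9%). Etv4, an ETS factor, stood at 72, 296, 34 and 48.4 in untreated libraries and at 1703, 1764, 741 and 751 with OSK (log2 change 3.86, SE 0.675). Etv5 stood at 906, 1099.8, 369 and 456 and at 6788, 7668, 4163 and 5279 (log2 change 3.18, SE 0.358). The phosphatase gene Dusp4 stood at 20.8, 150.1, 40.8 and 26.9 and at 1630.3, 3798, 1023 and 1480.1 (log2 change 5.31). Untreated replicate 2 was the highest of its group for all 3 and lay below every OSK library. Spry1, Spry2, Spry4, Spred1, Spred2, Dusp6 and Etv1 were the other rises. Of 5 receptors 4 fell, Fgfr2 from 2407 to 5047 to 826 to 1206 and the decoy receptor gene Fgfrl1 from 5176 to 7122 to 758 to 945, and Fgfr1 was not called. Among ligands Fgf4 and Fgf18 rose, and Fgf7, Fgf10 and Fgf21 fell. Of these genes Fgf18 was not called without untreated replicate 3 (log2 1.29, adjusted p 0.0654), and Spry2 not called without OSK replicate 4 (log2 0.37, adjusted p 0.0508). The receptor gene Fgfr3 was not called in a fit of the 2 groups alone or without untreated replicate 3 (log2 -2.38 to -1.58, adjusted p 0.0667 to 0.0757).

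WNT genes fell more often than they rose. Of 41 tested members 23 fell and 2 rose (median -1.23; all genes 22.9% and 21.4%), and with every library scaled to the same total 21 fell and 5 rose. The ligand gene Wnt5b stood at 1497, 1209, 1039 and 2162 in untreated libraries and at 79.5, 33.5, 95.9 and 138 with OSK (log2 change -4.18, SE 0.319), and Wnt16 at 831, 1286, 1126 and 965 and at 54.2, 82.3, 81.1 and 109.5 (log2 change -3.69). Neither had overlapping groups. Among 14 receptors 9 fell and none rose, with Fzd9 at -5.82, Fzd8 at -1.55 and Lrp6 at -1.23. The target and feedback gene Nkd1 fell from 569.8 to 855 to 1.81 to 7.38, while Axin2, another target, was not called. Secreted antagonists fell as well, 6 of 10, among them Frzb (-5.72) and Sfrp1. Dkk2 and Sost were the antagonists that rose. Dkk2 stood at 56.4, 490.2, 36.3 and 129 and at 2484, 2945, 1657 and 3026 (log2 change 4.51).

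In the TGF-beta pathway, which drives matrix production in fibroblasts, 11 of 29 tested genes fell and 5 rose (all genes 22.9% and 21.4%), and with every library scaled to the same total 7 fell and 7 rose. The ligand genes Tgfb3, Tgfb2 and Tgfb1 fell, with log2 changes of -2.12, -1.11 and -0.55, and the activin subunit genes Inhba and Inhbb were not called. Inhba was called lower with the replicate number as a block (log2 -0.97, adjusted p 0.000108), without OSK replicate 2 (-1.49, adjusted p 0.00845) or without untreated replicate 3 (-1.32, adjusted p 0.0344), and Inhbb without OSK replicate 2 (-0.94, adjusted p 0.0321). Tgfb1 was not called with totals made equal or without any 1 of OSK replicates 3 and 4 (log2 -0.48 to -0.42, adjusted p 0.0529 to 0.0617), and Tgfb2 not called in a fit of the 2 groups alone (log2 -1.11, adjusted p 0.057). Smurf2, a ubiquitin ligase that limits the pathway, rose from 1631 to 2676 to 6315 to 7736. In the BMP pathway 6 of 27 tested genes rose and 9 fell, beside 21.4% and 22.9% of all genes. The ligand genes Bmp4 and Bmp6 rose (2.78 and 4.00) among 3 rises and 2 falls of 7 ligands, 5 of 8 antagonists fell and none rose (Fst -1.68), and of 6 targets Id1, Id4 and Msx1 rose and Msx2 fell. Id4 was not called without untreated replicate 4 (log2 0.98, adjusted p 0.0515).

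**Figure D4:**
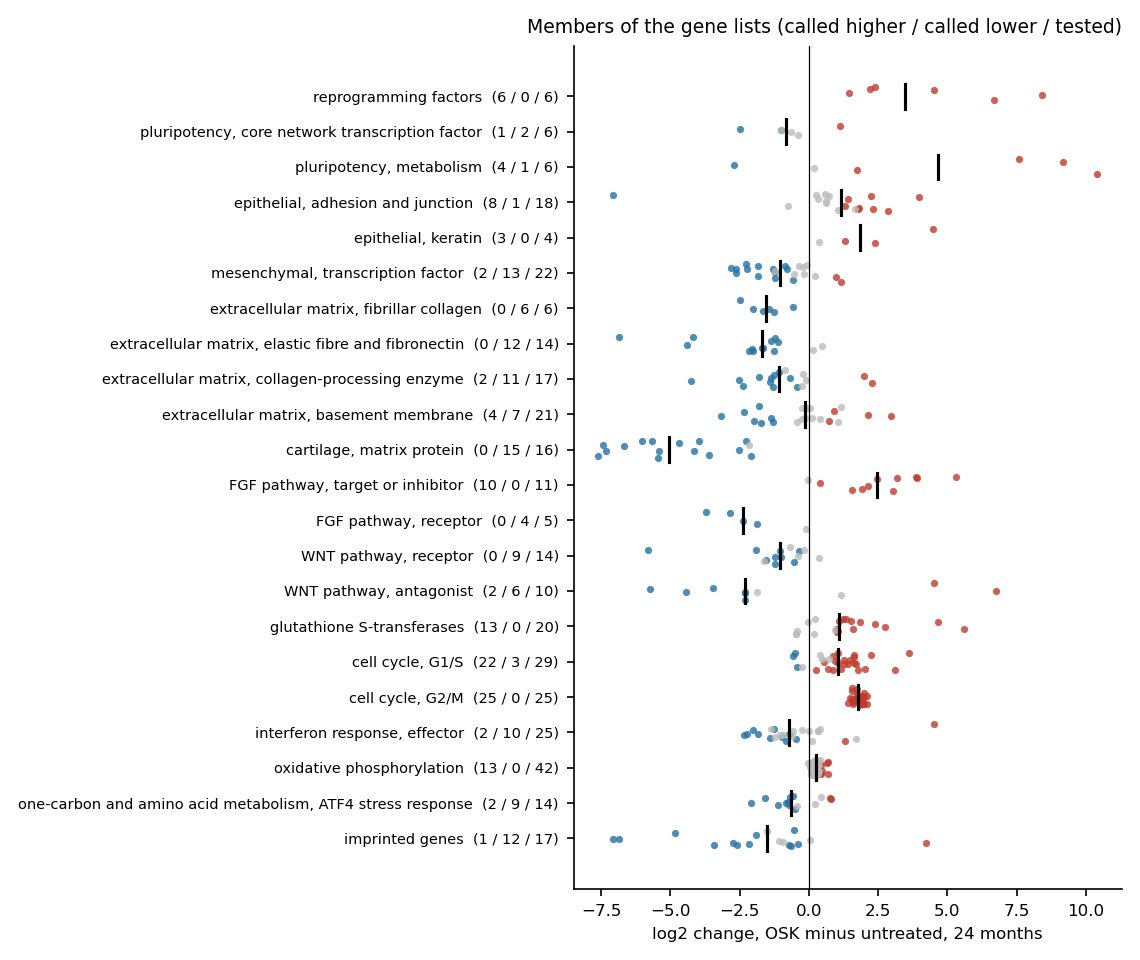
Members of 22 gene lists or roles. Each row is a list with the number called higher, called lower and tested, each point is 1 tested gene at its log2 change (OSK minus untreated), red for called higher, blue for called lower and grey for not called, and the black bar is the median. Points of the G2/M row all lie to the right of 0, and those of the fibrillar collagen row to the left.

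Cell cycle genes rose nearly throughout. Of 61 tested members 51 rose and 3 fell, with a median of 1.57 (all genes 21.4% and 22.9%). All 25 genes of G2 and mitosis rose (median 1.79), and so did 22 of 29 genes of G1 and S phase. Mki67, the proliferation marker, stood at 964, 2861, 1239 and 1198 normalized counts in untreated libraries and at 6006, 6322, 5301 and 4099 with OSK (log2 change 1.91, SE 0.409, adjusted p 0.000606). Cdc20, an activator of the anaphase-promoting complex, stood at 432, 1354, 798 and 629 and at 3145, 2822, 4896 and 2326 (log2 change 2.11, SE 0.372). Untreated replicate 2 was the highest of the untreated libraries in both, and lay below every OSK library. Without that replicate 54 members rose and 2 fell (median 1.82).

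Ccnd1, which encodes cyclin D1, stood at 1388, 2966, 1945 and 1552 and at 25408, 24117, 25005 and 17667 (11.7-fold, log2 change 3.60, SE 0.295, adjusted p 2.46e-09). Rrm1, a subunit of ribonucleotide reductase, rose by 2.23 and E2f2 by 3.11. The 3 falls were Cdk4, Cdk6 and Ccnd3, the kinases that pair with D cyclins and another D cyclin. Cdk6 was not called by DESeq2, by edgeR, without the filter, in a fit of the 2 groups alone, with totals made equal, without any 1 of OSK replicates 1, 3 and 4 or without any 1 of untreated replicates 1, 2 and 4 (log2 -0.60 to -0.40, adjusted p 0.0569 to 0.176). Of 7 genes for inhibitors of these kinases none was called lower. The INK4 genes rose: Cdkn2d by 1.44, Cdkn2a by 0.87, Cdkn2c by 0.73 and Cdkn2b by 0.55. Cdkn2a yields both p16 and p19 transcripts, which the table does not part, and was not called without OSK replicate 2 or without any 1 of untreated replicates 1 and 4 (log2 0.69 to 0.78, adjusted p 0.0542 to 0.0766). Cdkn1a, which encodes p21, stood at 2337, 2304, 3344 and 2164 and at 1739.6, 3737, 2107 and 1962 and was not called (adjusted p 0.658). Of 23 genes of the p53 pathway 7 rose, among them Fas (0.94), and 2 fell, Plk2 (-2.70) and Mdm4, which was not called without the filter, with totals made equal, without any 1 of OSK replicates 1, 3 and 4 or without any 1 of untreated replicates 1, 2 and 4 (log2 -0.45 to -0.30, adjusted p 0.0535 to 0.143). Without untreated replicate 4 the rises numbered 4. Of all genes 21.4% rose, so these counts lie on either side of the share of all genes.

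The series centres on Gsta4, a glutathione S-transferase that conjugates the lipid aldehyde 4-hydroxynonenal. It stood at 273, 271, 379 and 292 in untreated libraries and at 8538, 8459, 9159 and 5268 with OSK, with replicate 4 the lowest of the OSK group (log2 change 4.67, SE 0.281). Of 20 tested transferases of glutathione 13 rose and none fell (median 1.07; all genes 21.4% and 22.9%). Close paralogs can share reads, so values of single members are uncertain. Gsta3 rose from 0 to 4.48 to 103 to 159, Mgst3 from 448 to 1061 to 3235 to 5476 and Gstt3 from 927 to 1299 to 3432 to 4724. Other genes of glutathione went both ways. Cth, which makes cysteine from cystathionine, stood at 106, 73.2, 76 and 42.1 and at 2165, 3315, 1755 and 1478 (log2 change 4.86, SE 0.285), and Gsr, which regenerates glutathione, rose by 1.59. Chac1, which degrades glutathione, fell by 2.08, and Gclc, which starts its synthesis, was called lower.

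Other defences against oxidants and aldehydes did not move one way. Of 51 oxidative defence genes 19 rose and 14 fell (median 0.16; all genes 21.4% and 22.9%), the falls near the share of all genes. The cytosolic superoxide dismutase gene Sod1 stood at 4163, 4360.4, 4836 and 5222 and at 10771, 10197, 14084 and 10521 (log2 change 1.29), while the secreted Sod3 fell by 1.43 and the secreted glutathione peroxidase gene Gpx3 fell by 2.24. Nfe2l2, which encodes the oxidant-response factor NRF2, rose from 2597 to 2998 to 4347 to 5966 (log2 change 0.94, SE 0.1). Its best-known target Nqo1 stood at 1278, 467, 3397 and 1115 and at 939, 585, 918 and 973 and was not called (adjusted p 0.37), and the target Hmox1 was called lower. Among 32 aldehyde-removing enzymes 12 rose and 12 fell (all genes 21.4% and 22.9%). Beside the rise of Aldh3a1, Aldh1a7 fell from 1634, 1264, 1396 and 880.2 to 51.5, 25.3, 55.9 and 49.6 (log2 change -4.82), and Aldh1b1 and Akr1c14 rose by 1.91 and 1.69.

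Genes of energy metabolism were counted next. Of 30 glycolysis genes 13 rose and 3 fell (median 0.35; all genes 21.4% and 22.9%). Hk2, the inducible hexokinase, stood at 475, 718, 403 and 459 and at 3002, 2833, 2689 and 2532 (log2 change 2.46, SE 0.164). Gpi1, the next enzyme, rose by 1.24, Ldhb fell by 1.21, and Pdk4, which holds pyruvate back from mitochondria, fell by 2.16. Of 42 nuclear genes of oxidative phosphorylation 13 rose, none fell and 29 were not called, with a median of 0.26. The largest of these was Ndufb8, of complex I (0.69). Of all genes 21.4% rose. This count rested on the scaling and on single libraries: 20 rose with every library scaled to the same total, 6 without OSK replicate 3 and 5 without untreated replicate 1, both under the share of all genes. No mitochondrially encoded gene was in the table. Of 14 genes of the ATF4 stress response 9 fell and 2 rose (all genes 22.9% and 21.4%), with Trib3 and Ddit3 at -1.59 and -1.13. Phgdh, which starts serine synthesis, stood at 3504, 5197, 4335 and 4220.4 and at 1771, 1351, 3437 and 1182 (log2 change -1.27), with OSK replicate 3 just under the untreated range.

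Imprinted genes, which are expressed from 1 parental allele and many of which are active in fetal growth, numbered 17 tested, of which 12 fell, 1 rose and 4 were not called (median -1.51; 22.9% of all genes fell). H19, a maternally expressed RNA, stood at 15766, 10735, 23879 and 22277 normalized counts in untreated libraries and at 114, 81.4, 200.2 and 137 with OSK (137-fold lower, log2 change -7.09, SE 0.365, adjusted p 2.72e-12). Igf2, its paternally expressed neighbour, stood at 7162, 6982, 3905 and 4524 and at 178, 316, 67.5 and 328 (log2 change -4.85, SE 0.371). Dlk1, of another imprinted cluster, stood at 2268, 5621, 4541 and 1777 and at 30.7, 27.1, 25.3 and 22.5 (log2 change -6.87). For all 3 genes the OSK libraries lay far below the untreated ones, and genes of either parental origin fell. The member that rose was Nnat, which went from 10.4 to 30.4 to 146 to 1287 with its highest value in OSK replicate 2.

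Genes that write and read chromatin marks moved both ways. The maintenance methylation genes Uhrf1 and Dnmt1 rose (1.77 and 0.54), and the de novo methyltransferase genes Dnmt3a and Dnmt3b fell (-0.64 and -0.74). Dnmt3b was not called in a fit of the 2 groups alone, with totals made equal, without any 1 of OSK replicates 1, 2 and 4 or without any 1 of untreated replicates 1 and 3 (log2 -0.76 to -0.57, adjusted p 0.0552 to 0.136). Of 13 genes of DNA methylation 3 rose and 5 fell in all, the rises near the share of all genes (21.4%). Of 30 histone-modifying genes 9 rose and 5 fell (median 0.04), shares not far from those of all genes (21.4% and 22.9%). The Polycomb genes Phf19 and Cbx7 rose by 3.23 and 2.72. Phf19 stood at 51.2, 114, 61.2 and 55.5 and at 689, 656, 913 and 399, and Cbx7 at 83.3, 76, 76 and 65.4 and at 653, 478, 415 and 476. Neither gene had overlapping groups. Of 9 tested HOX genes 2 fell, Hoxa3 and Hoxc13, near the share of all genes (22.9%). Hoxa3 was not called by edgeR, with totals made equal, without any 1 of OSK replicates 1, 3 and 4 or without any 1 of untreated replicates 1, 2 and 4 (log2 -1.09 to -0.76, adjusted p 0.0501 to 0.138).

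Secreted factors linked to senescence fell more often than they rose, 13 against 5 of 27 (median -1.45; all genes 22.9% and 21.4%). Il6, a cytokine of senescent and inflamed cells, stood at 70.2, 133, 70.3 and 69 and at 10.8, 5.43, 8.43 and 16.9 (log2 change -2.97, SE 0.362). Cxcl12, a chemokine of stromal cells, fell from 15387 to 42442 to 2616 to 6575, and Igfbp2 from 7691 to 39405 to 311 to 567. Ccl2, a chemokine for monocytes, moved the other way, from 20.8, 42.6, 18.1 and 17.9 to 409, 721, 593 and 329 (log2 change 4.34, SE 0.37), as did Ccl7 (3.61). Of 36 interferon response genes 14 fell and 4 rose (median -0.58; all genes 22.9% and 21.4%), with Gbp2 at -2.25 and Ifit3 at -1.84. Without OSK replicate 2 the falls numbered 9, near the share of all genes. Oas2 was among the rises, from 0.87 to 3.4 to 49.7 to 97.7. The complement genes C3 and C4b fell, C3 from 27059, 20991, 34413 and 29509 to 1533, 2461, 2084 and 3299.98 (log2 change -3.61, SE 0.366), and C4b fell by 4.76. Reads can be shared between C4b and its copy C4a. Cd55, which protects cells from complement, rose by 2.62. Among AP-1 and other enhancer factors of fibroblasts 13 of 30 fell and 4 rose (all genes 22.9% and 21.4%), with Runx1 at -2.48, Fosl2 at -1.34 and Tead4 at 1.31.

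Markers of other cell types were summed in each library. The endothelial sum was 112 to 1344 in untreated libraries and 1899 to 4170 with OSK. Most of it was Tek, an angiopoietin receptor, which went from 342, 789, 89.6 and 698 to 1855, 4018, 2240.4 and 2794. Cdh5, the cadherin that defines these cells, rose from 4.34, 0.93, 1.13 and 8.06 to 18.1, 122, 14.8 and 38.4 (log2 change 3.21; it was not called with a pseudocount of 0.1 (log2 3.69, adjusted p 0.0586)), while Cldn5 had 3 reads or fewer and Flt1 fell by 3.15 (it was not called with a pseudocount of 0.1 or without untreated replicate 2 (log2 -3.31 to -2.25, adjusted p 0.0562 to 0.0589)). The sum of 6 Schwann cell markers was 641 to 3926 in untreated libraries and 15613 to 16726 with OSK, where nearly all of it was Prx, and Sox10 had 3 reads or fewer. The smooth muscle sum was 3942 to 6260 and 5753 to 14147, and Actg2 rose from 108, 1096, 52.2 and 66.3 to 6633, 10620.4, 3955 and 3031, while Myh11, the defining myosin, fell by 3.63. Of the 7 markers in this sum 1 was called higher and 3 lower, Mcam and Notch3 among the latter (all genes 21.4% and 22.9%). Adipocyte markers summed to 458 to 6986 and 334 to 1196, melanocyte markers to 197 to 336 and 81.3 to 103, muscle markers to 840.2 to 986 and 491 to 2602, macrophage markers to 81.6 to 132 and 73.0 to 208, and T cell markers to 11.1 to 27.8 and 9.36 to 17.2. The muscle factors Myog and Pax7 were at 0 in all 8 libraries, and C1qa, Cd3e and Tyr had 3 reads or fewer. The part of other cell types in the results above was not tested.

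The response at 24 months was set against that of 3-month cells, which shares no library with it. At 3 months 2704 genes rose (19.1%) and 2612 fell (18.5%). The difference of the responses was called for 986 genes (6.97%), 330 with a higher change at 24 months (2.33%) and 656 with a lower one (4.64%). With the replicate number within each age as a block (a paired fit), 1568 genes were called.

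The lists of matrix, mesenchymal and WNT genes were counted against these shares. Of 106 matrix genes 25 were called with a lower change at 24 months and 5 with a higher one, of 43 mesenchymal genes 10 and none, and of 41 WNT genes 8 and 1. Pdgfra was 9025 ± 3738 in untreated and 13954 ± 1326 in OSK cells at 3 months (mean ± SD, n = 4), and 28554 ± 7219 and 9775 ± 3278 at 24 months. Its log2 change was 0.71 at 3 and -1.56 at 24 months, a difference of -2.27 (SE 0.391, adjusted p 0.00104). Wnt5b was 107 ± 16.7 and 118 ± 15.6 at 3 months and 1477 ± 494 and 86.6 ± 43.1 at 24 months, a difference of -4.34 (SE 0.451, adjusted p 8.37e-06). Ndnf, a secreted protein with fibronectin domains, changed by 1.51 and -4.76, and Adamts15, a matrix protease, by 3.23 and -1.51, so the sign of the fitted change differed between the ages. The fall of Adamts15 at 24 months was not called without the filter, with totals made equal, without any 1 of OSK replicates 1, 2 and 3 or without any 1 of untreated replicates 1, 2 and 4 (log2 -1.58 to -1.33, adjusted p 0.0509 to 0.106). Col1a1 changed by 0.21 at 3 months and -1.27 at 24 months (difference -1.49, SE 0.398, adjusted p 0.0244), and Postn by -5.04 and -9.08 (difference -4.04, SE 0.467, adjusted p 3.09e-05). The difference for Col1a1 was not called without OSK replicate 1, without any 1 of untreated replicates 1 and 4, without 3-month OSK replicate 4 or without 3-month untreated replicate 3 (log2 -1.45 to -1.29, adjusted p 0.0511 to 0.0596). Pgm5, Col14a1 and Megf6 also fell further at 24 months, with differences of -6.36, -5.73 and -5.39.

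Some rises were larger at 24 months. Trh changed by 5.35 at 3 months and 10.41 at 24 months (difference 5.06, adjusted p 0.00542) and Fgf4 by 5.32 and 9.23 (difference 3.91, adjusted p 0.00238). Neither difference was called by DESeq2 on the recovered reads (adjusted p 0.312 and 0.279), by edgeR (1.00 for both) or with a pseudocount of 0.1 (0.104 and 0.0847). Cth changed by 2.43 and 4.86 (difference 2.42, SE 0.404, adjusted p 0.000799) and Pllp by 4.74 and 7.69 (difference 2.95, adjusted p 0.00918). Rbfaos, an antisense RNA whose reads cannot be parted from its host strand without strand information, changed by 1.40 and 6.61. Other genes had a smaller log2 change at 24 months. Gsta4 was 25.6 ± 5.75 in untreated and 2198 ± 737 in OSK cells at 3 months and 304 ± 50.8 and 7856 ± 1754 at 24 months (mean ± SD, n = 4). Its log2 change was 6.32 and 4.67 (difference -1.65, SE 0.397, adjusted p 0.0135). Cd34 was 608 ± 207 and 21764 ± 2577 at 3 months and 3465 ± 883 and 31179.8 ± 7785 at 24 months, with log2 changes of 5.21 and 3.17 (difference -2.04, adjusted p 0.00832). For both genes the untreated level was higher at 24 months, and so was the rise in counts. Matn3, a cartilage matrilin, changed by -10.23 at 3 months and -4.69 at 24 months (difference 5.53, not called by edgeR (log2 5.82, adjusted p 0.0854)). Fam180a fell by 3.31 at 3 months and was not called at 24 months (0.37, difference 3.68).

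The cell cycle list was called more often at 24 than at 3 months, but 2 of its 61 genes passed the test of the difference (6.97% of all genes did). At 3 months 18 of 61 rose and 2 fell (all genes 19.1% and 18.5%). Of the 25 genes of G2 and mitosis 5 rose, near the share of all genes. Of the 2 genes that differed between the ages 1 had a higher and 1 a lower change at 24 months. Mki67 changed by 1.15 and 1.91 (difference 0.76, SE 0.578, adjusted p 0.465).

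**Figure D5:**
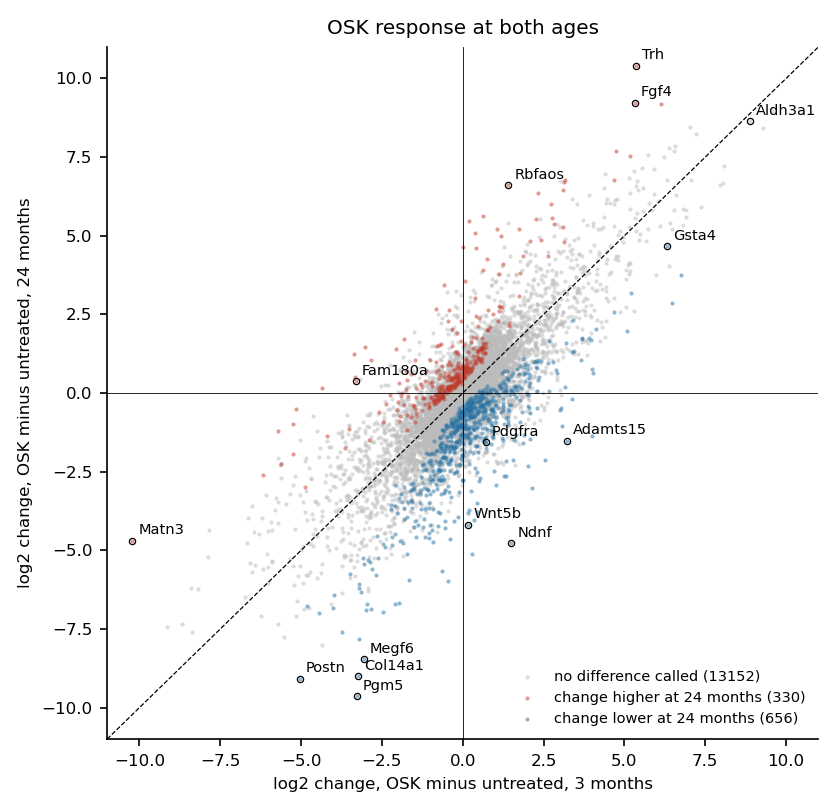
OSK response at 24 months against that at 3 months for the 14138 genes tested. Axes are log2 changes, OSK minus untreated, each point is 1 gene, the dashed line is equality, and colour marks the 330 genes with a higher and the 656 with a lower change at 24 months by the test of the difference. Ndnf and Adamts15 lie at the lower right, where the change has opposite signs, and Gsta4 lies at the upper right under the dashed line.

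Spread among the OSK libraries of 24 months was ranked by the SD of log2 values, over called genes with a mean of at least 200. The 5 genes at the top were all highest in replicate 2, and each reached that mean only through this replicate. Further down, Sfrp2 (SD 1.57) was highest in replicate 4. The 5 included Sost, a WNT and BMP antagonist of bone, at 66.8, 1147, 199 and 30.9, Edn2, endothelin 2, at 28, 668, 103 and 25.3, and Plekhs1 at 106, 892, 56.9 and 104. Their untreated values were 0 to 2.78, 0 to 3.4 and 0 to 16.7. Dpysl5, a neuronal protein of axon guidance, stood at 71.3, 647, 107 and 30.9 against 0.9 to 7.81. Tenm3, a teneurin, fell from 592, 3644, 134 and 718 to 70.5, 891, 34.8 and 50.5, with replicate 2 the highest of both groups and overlapping values, and was not called by DESeq2, by edgeR, in a fit of the 2 groups alone, without any 1 of OSK replicates 1, 3 and 4 or without any 1 of untreated replicates 1, 2 and 4 (log2 -2.76 to -1.89, adjusted p 0.0608 to 0.152). Untreated and OSK replicate 2 both carry the letter b in their library names.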

How the data were processed

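Poly(A) RNA of mouse ear fibroblasts was sequenced, per the labels' protocols, from 24 libraries in 6 groups of 4. The submitters' processing notes name STAR 2.7.1a and featureCounts 1.6.2; which annotation and normalizing tool were used, and whether strand was used, was not given in the sources used here. The deposited table holds, as a signal per gene and library, normalized counts: the low values of a library were whole multiples of 1 step (100% within 0.02 in all 8 libraries compared here), so the authors divided the reads of each library by 1 factor. Whole reads were taken as recovered in 22 of 24 columns. Columns of 3-month untreated replicate 4 and 24-month withdrawn replicate 1, with steps near 1 (1.01 and 1.00), met the same tolerance but were not accepted in a further check of the file, and stayed out of the count tests.

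A gene was tested when it reached 10 normalized counts in 4 or more of the 24 libraries (14138 of 26206 genes). The log2(value + 1) values were fitted with limma 3.58.1 in R 4.3.3 (empirical Bayes with trend and robust settings), 6 group means and all 24 libraries, because the table holds normalized values; Benjamini-Hochberg adjusted p-values under 0.05 were called. Alternatives were pseudocounts of 0.1 and 5, no filter, a filter at 50, TMM scaling, edgeR 4.0.16 and DESeq2 1.42.0 on recovered reads, a replicate block, a fit of the 2 groups alone, a 2-fold minimum and each library left out; scaling to equal totals was added after seeing the data. The fit was also run on simulated data with far fewer changed genes than were called here. That run gives no error rate for these data. At 24 months untreated and OSK libraries of equal number carry the same letter in their names, whose meaning is not given in the sources used here, and deviations of same-numbered libraries from their group means correlated in every pair (r = 0.138, 0.306, 0.246 and 0.173), so the numbers were taken to pair the libraries within an age. Replicate libraries differed by more than sampling noise in all 12 pairs (chi-square per degree of freedom at least 42.9).

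The members and the 27 gene lists and 11 marker lists were chosen with earlier results of these data known. The text names the 3 factors and Gsta4, the 12 largest rises and falls by fold and the 6 by level among called genes without overlap and with a group mean of at least 200, up to 4 called members per list role with a mean of at least 50, the 5 largest differences between ages in each direction, and the 5 largest spreads among OSK libraries. Predicted genes, clone names and pseudogenes were left out of this rule. A few genes that the rule selects are not reported here. Other genes (markers, members named as not called, members counted in full, promoters with the octamer, and the age differences of Pdgfra, Wnt5b, Col1a1, Postn, Cth, Pllp, Cd34 and Mki67) were chosen after their values were seen. A floor of 3 reads per library was used for bounds. Promoters were taken from RefSeq GRCm38.p6 by symbol.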

Additional observations from a re-analysis of the deposited data

Results flagged for a closer look

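In each group of 4 libraries of 24 months, the highest or lowest value of a gene was set against the other 3 by Dixon's ratio of the gap to the range, at its 95% critical value. Over the 279 genes chosen by the naming rule this marked 46 of 501 groups of libraries whose highest value reached 50 normalized counts. Chance marks about 1 in 20 when values are normal. Here the ratio was taken on counts, not logs, and the genes include the 5 chosen for the largest spread among OSK libraries. The share of marks can therefore not be compared with chance. Over the 224 genes in the text the ratio marked 42 of 377. Untreated replicate 2 held 15 of these and OSK replicate 2 12, while untreated replicate 4 and OSK replicate 1 held none.

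Untreated replicate 2 stood far above the other 3 untreated libraries for Tnmd at 2976, Tbx15 at 4183, Cnn1 at 4400.3, Id4 at 978, Dusp4 at 150.1, Etv4 at 296, Il6 at 133 and Cd55 at 1218 normalized counts. Further such values were Dnmt1 at 2130.2, Phf19 at 114, Actg2 at 1096, Tenm3 at 3644, Mki67 at 2861 and Twist2 at 1011 normalized counts. The same library lay far below the others for Gpx3 at 7666 normalized counts. Untreated replicate 3 was high for Cldn19 at 751, Klf5 at 185, Sod3 at 10349 and Cdkn1a at 3344 normalized counts. It was low for Pgm5 at 279, Tet1 at 109, Cdh3 at 510.3 and Lrp6 at 7687 normalized counts. In untreated replicate 1 the high values were Fn1 at 770789 and Ifit3 at 502 normalized counts. OSK replicate 2 stood far above the other 3 OSK libraries for Tgfb1 at 822, Bmp6 at 1275, Sost at 1147, Edn2 at 668, Tenm3 at 891, Dpysl5 at 647, Plekhs1 at 892 and Mycl at 108 normalized counts. Further such values were Trim71 at 87.7, Inhba at 1246 and Inhbb at 1189 normalized counts. Its value was far below the others for Nqo1 at 585 normalized counts. OSK replicate 3 was high for Sod1 at 14084 and Ccl7 at 1473 normalized counts. OSK replicate 4 was high for Igfbp5 at 6371 and Mmp2 at 20889.6 normalized counts. OSK replicate 4 was low for Ccnd1 at 17667 normalized counts.

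Of the differences between the 24-month and 3-month responses that the report gives, 18 passed the test of the difference (limma, adjusted over all genes). Differences of other named genes are not listed. As log2 change at 24 months minus that at 3 months, the difference was positive for Trh (5.06), Fgf4 (3.91), Pllp (2.95), Cth (2.42), Matn3 (5.53), Rbfaos (5.20) and Fam180a (3.68). It was negative for Gsta4 (-1.65), Pgm5 (-6.36), Postn (-4.04), Col14a1 (-5.73), Megf6 (-5.39), Col1a1 (-1.49), Cd34 (-2.04), Wnt5b (-4.34), Pdgfra (-2.27), Ndnf (-6.27) and Adamts15 (-4.74).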

How the results depend on the processing

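At 24 months 6263 genes were called in the reported fit and 5333 to 6605 under the alternatives that kept all 8 libraries and set no minimum fold. With a minimum of 2-fold, 2970 genes were called, 1341 higher and 1629 lower, and 602 genes for the difference between ages. Leaving out single libraries gave 5564 to 6062 calls, 2719 to 2936 higher and 2845 to 3126 lower, and 676 to 1371 calls for the difference between ages. The exact test of the 3 induced factors stands at the smallest p it can give (0.0286) in each setting, and so says nothing about stability. DESeq2 called 6577 and edgeR 6269 genes, and 6150 and 6049 of these were shared with the reported calls in the same direction. With the replicate block, which pairs libraries of equal number within an age, 6583 genes were called at 24 months, 6119 of them shared, and the difference between ages was called for 1568 genes. The difference for Klf4 between ages was called with the block and by DESeq2 only (log2 1.18 and 1.44, adjusted p 0.0202 and 0.0224). Besides Inhba and Klf4 the block changed no call of a named gene.

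Of 326 named genes 49 changed their call or direction under at least 1 alternative, and so did 5 of 22 tested differences between ages. Changes of direction occurred in genes that were not called and stayed so: Cdkn1a at 0.00596 without untreated replicate 3 (adjusted p 0.987), Dcn at 0.0302 without OSK replicate 3 (adjusted p 0.935) and Fgfr1 at 0.0279 with equal totals (adjusted p 0.867). With single libraries left out, the log2 change of Cdkn1a ran from -0.37 to 0.00596 and that of Dcn from -0.33 to 0.0302. Their causes were not tested. With 4 libraries a group and 1 normalized count as the pseudocount, folds of genes near 0 are understated, and values of a few reads carry counting error as large as themselves. Harvest day, doxycycline and OSK cannot be told apart.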
